A study of Mus musculus with 12 samples.

Results

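The nuclear receptors CAR (*Nr1i3*) and PXR (*Nr1i2*) were followed together with the cytochrome P450 genes *Cyp2b9*, *Cyp2b10*, *Cyp2b13*, *Cyp2a4*, *Cyp2a5*, *Cyp2a12* and *Cyp2a22*. The genes were picked by symbol from the table of the study, and all 9 were found among its 24532 genes. Whole liver RNA was sequenced from 12 male C57BL/6 mice in 4 groups of 3 livers. WT+con and WT+EtOH were *Ahr* fl/fl littermates without Cre. *Ahr* HKO+con and *Ahr* HKO+EtOH were *Ahr* fl/fl mice carrying *Alb-Cre*, which deletes a floxed part of *Ahr* under the albumin promoter, so that liver cells other than those of the hepatocyte lineage keep the gene. EtOH stands for a Lieber-DeCarli ethanol liquid diet and con for its isocaloric liquid control, both fed for 5 weeks to mice that were 10 to 12 weeks old at the start. Every group therefore carried the floxed allele and was fed a liquid diet, and the 3 livers of a group were drawn at random from its mice.

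CAR and PXR are ligand- or signal-activated transcription factors of the liver that sense drugs, bile acids and steroids. CAR is held in the cytoplasm of resting hepatocytes by chaperones, moves to the nucleus on activation and binds DNA as a heterodimer with RXR. *Cyp2b10* is the classical CAR target of mouse liver. *Cyp2a5* is the mouse coumarin 7-hydroxylase and responds to several nuclear receptors and to cell stress, and *Cyp2a4* encodes a closely related testosterone 15-alpha-hydroxylase. *Cyp2b9*, *Cyp2b13* and *Cyp2a4* are known as genes of female mouse liver that are low in adult males, where pulses of growth hormone keep them down.

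In the RefSeq annotation of GRCm38, *Nr1i3* (Entrez 12355) lies at chr1:171213934-171218845 and *Nr1i2* (18171) at chr16:38248349-38294849. The 7 P450 genes lie within 1139.161 kb of chromosome 7. Their order along it is *Cyp2b10* (13088, chr7:25897658-25926624), *Cyp2b13* (13089, chr7:26061388-26096197), *Cyp2b9* (13094, chr7:26173350-26210661), *Cyp2a4* (13086, chr7:26307192-26315088), *Cyp2a5* (13087, chr7:26835339-26843264), *Cyp2a22* (233005, chr7:26931631-26939413) and *Cyp2a12* (13085, chr7:27029090-27036818).

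The P450 genes come in close pairs, and the sequences below show how far the pairs can be told apart. In the 250 bases before the transcript start, taken from the RefSeq promoter table of GRCm38.p6 and read 5′ to 3′ on the plus strand, *Cyp2b9* and *Cyp2b13* differed at 2 of 250 aligned bases. *Cyp2a4* and *Cyp2a5* differed at 4 of 249. The starts that table uses for *Cyp2b9* and *Cyp2b13* lie just inside the annotated gene spans given above. Capitals mark the bases at which the members of a pair differ.
Cyp2b9 (chr7:26173159-26173408): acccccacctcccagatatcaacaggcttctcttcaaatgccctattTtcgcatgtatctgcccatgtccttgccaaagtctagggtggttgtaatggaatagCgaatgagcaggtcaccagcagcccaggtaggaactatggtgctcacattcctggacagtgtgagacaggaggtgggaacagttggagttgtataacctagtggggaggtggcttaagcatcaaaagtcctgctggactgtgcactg
Cyp2b13 (chr7:26061245-26061494): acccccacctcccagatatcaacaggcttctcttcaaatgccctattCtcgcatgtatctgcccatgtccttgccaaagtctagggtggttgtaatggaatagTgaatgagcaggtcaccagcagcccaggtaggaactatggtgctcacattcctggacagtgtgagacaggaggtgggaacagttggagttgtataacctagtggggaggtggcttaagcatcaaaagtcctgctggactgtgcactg
Cyp2a4 (chr7:26306942-26307191): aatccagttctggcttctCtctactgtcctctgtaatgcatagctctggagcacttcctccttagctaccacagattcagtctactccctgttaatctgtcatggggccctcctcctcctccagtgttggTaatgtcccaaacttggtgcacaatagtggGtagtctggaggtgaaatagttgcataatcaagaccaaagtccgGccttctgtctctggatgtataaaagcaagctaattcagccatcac
Cyp2a5 (chr7:26835089-26835338): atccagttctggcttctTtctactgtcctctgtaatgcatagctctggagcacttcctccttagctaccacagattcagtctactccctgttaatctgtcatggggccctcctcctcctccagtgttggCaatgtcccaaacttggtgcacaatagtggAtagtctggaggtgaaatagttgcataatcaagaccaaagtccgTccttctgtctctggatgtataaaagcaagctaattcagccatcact

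*Cyp2b10* was less alike, with 71.7% identity to *Cyp2b9* over the same window, and *Cyp2a12* and *Cyp2a22* were 82.8% identical. The window of *Cyp2b10* is shown because it alone among the 9 genes held the letters GCGTG, the core that AhR is known to bind. Capitals here mark that core, once on the plus strand from 9 bases before the start and once on the minus strand, where it reads CACGC, from 101 bases before it.
Cyp2b10 (chr7:25897408-25897657): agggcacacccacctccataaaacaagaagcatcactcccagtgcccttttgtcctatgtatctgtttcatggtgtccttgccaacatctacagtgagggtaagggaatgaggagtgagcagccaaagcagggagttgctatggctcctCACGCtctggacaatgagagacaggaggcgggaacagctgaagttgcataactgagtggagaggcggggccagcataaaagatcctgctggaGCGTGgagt

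In all, 4 motifs were searched on both strands of the 300-base windows from 250 bases before to 50 after the start. GCGTG occurs in 32.4% of the 32851 promoters of the table. AGGTCA, the hexamer that nuclear receptors read, was found in *Cyp2b9* and *Cyp2b13* from 138 bases before the start, and on the minus strand just after the start in *Cyp2a5* and *Cyp2a4*. It occurs in 16.3% of all promoters. A direct repeat, AGNTCA followed by NNNN and AGNTCA again, and TTCNNNGAA, the letters that STAT5 is known to read, were found in none of the 9 windows and occur in 0.125% and 8.3% of all promoters. Matches to AGGTCA and to the repeat can overlap. These matches describe letters in short windows, and more distant enhancers were not searched.

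The coding sequences set how well a stretch of 100 bases can separate the pairs. *Cyp2a4* and *Cyp2a5* were 98.5% identical, with 23 differing positions, and 11.2% of the 100-base windows of the *Cyp2a4* transcript were found unchanged in *Cyp2a5*. *Cyp2a12* and *Cyp2a22* were 97.0% identical, with 6.83% of the *Cyp2a12* windows found in *Cyp2a22*. *Cyp2b9* and *Cyp2b13* were 92.7% identical, with 1.18% of windows shared, and neither shared a window with *Cyp2b10*. The 60-base stretches of 1 exon with most differences (GENCODE vM21 transcripts, GRCm38) are printed with the differing bases in capitals, to show what a read has to resolve. They lie in coding exon 2 of *Cyp2a4* and *Cyp2a5* and in coding exon 7 of *Cyp2b9* and *Cyp2b13*.
Cyp2a4 (chr7:26307666-26307725): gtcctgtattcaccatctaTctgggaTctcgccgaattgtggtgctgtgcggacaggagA
Cyp2a5 (chr7:26835811-26835870): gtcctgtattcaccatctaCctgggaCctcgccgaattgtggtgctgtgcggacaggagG
Cyp2b9 (chr7:26200824-26200883): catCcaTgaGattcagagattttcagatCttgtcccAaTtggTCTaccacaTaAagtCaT
Cyp2b13 (chr7:26088336-26088395): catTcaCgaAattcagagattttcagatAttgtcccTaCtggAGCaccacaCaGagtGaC

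Because of this likeness, sums over the pairs and families are given beside the single genes.

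Each library held between 46306518 and 74336255 counted reads. A floor of detection of 3 counts corresponds to 0.0425 to 0.0676 CPM, the unit used below for read counts scaled to library size. On the control diet *Ahr* itself read higher in the libraries labelled *Ahr* HKO, at 41.3 to 65.5 CPM against 16.6 to 20.2 in WT, and on ethanol the ranges overlapped (24.7 to 41.8 and 20.8 to 30.5 CPM). A count over the whole gene includes exons outside the floxed one, so it does not check the deletion. *Cyp1a2*, a known AhR target, was at 90.7 to 258 CPM in *Ahr* HKO+con and at 398 to 617 in WT+con. On ethanol it was at 629 to 684 CPM in *Ahr* HKO and at 992 to 1212 in WT. *Cyp1a1*, another known AhR target, went the other way on the control diet. It was at 0.444 to 0.898 CPM in *Ahr* HKO+con and at 0.204 to 0.349 in WT+con. On ethanol its ranges overlapped (1.035 to 1.67 and 1.02 to 1.66 CPM). The Y-linked genes *Ddx3y*, *Kdm5d*, *Uty* and *Eif2s3y* were expressed in all 12 libraries, and *Xist* stayed at or below 0.119 CPM, as in male tissue. Hepatocyte markers summed to 67550 to 108300 CPM. In whole liver, fewer cells of a type and less RNA per cell cannot be told apart.

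Between WT+EtOH and WT+con, 8 of the 9 genes passed the test, all higher on ethanol. A gene was called when its adjusted *P* value was under 0.05 in edgeR's quasi-likelihood test, with Benjamini-Hochberg adjustment over the 14038 genes tested, and its fold change (FC) was above 1.5. Of all tested genes, 6.76% were called in this comparison, 3.36% higher and 3.4% lower. The remaining gene was *Nr1i2*, whose FC stayed under 1.5. All 9 genes were higher in every WT+EtOH liver than in any WT+con liver, where 32.9% of tested genes had groups that did not overlap and 16.2% were higher in this way. Between *Ahr* HKO+EtOH and *Ahr* HKO+con, 5 genes were called, again all higher, against 22% of tested genes called, 10.3% higher and 11.7% lower. The groups did not overlap for 8 of the 9 genes, all higher on ethanol, against 49.8% of tested genes, 24.5% higher and 25.3% lower. For mice on the control diet, *Ahr* HKO livers had 2 genes called lower than WT and 1 called higher, against 19.9% of tested genes called, 10.1% lower and 9.77% higher. The genotypes did not overlap for 4 of the 9 genes there (*Nr1i3* and *Cyp2a5* lower, *Cyp2a4* and *Cyp2a22* higher in *Ahr* HKO), against 47.3% of tested genes. On the ethanol diet, 2 genes were called lower in *Ahr* HKO and none higher, against 1.06% of tested genes called, 0.378% lower and 0.684% higher. The genotypes did not overlap for 7 of the 9 genes on ethanol, all lower in *Ahr* HKO, against 27.9% of tested genes, of which 14.2% were lower. The interaction of genotype and diet asks whether the diet difference itself differed between the genotypes. It was called for 3 genes, all with a negative sign, against 22.3% of tested genes, 11.1% with a negative sign. *Cyp2b9*, *Cyp2b13* and *Cyp2a4* passed the filter on low counts with no WT+con liver above its minimum, that is, through the other groups.

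**Figure D1:**
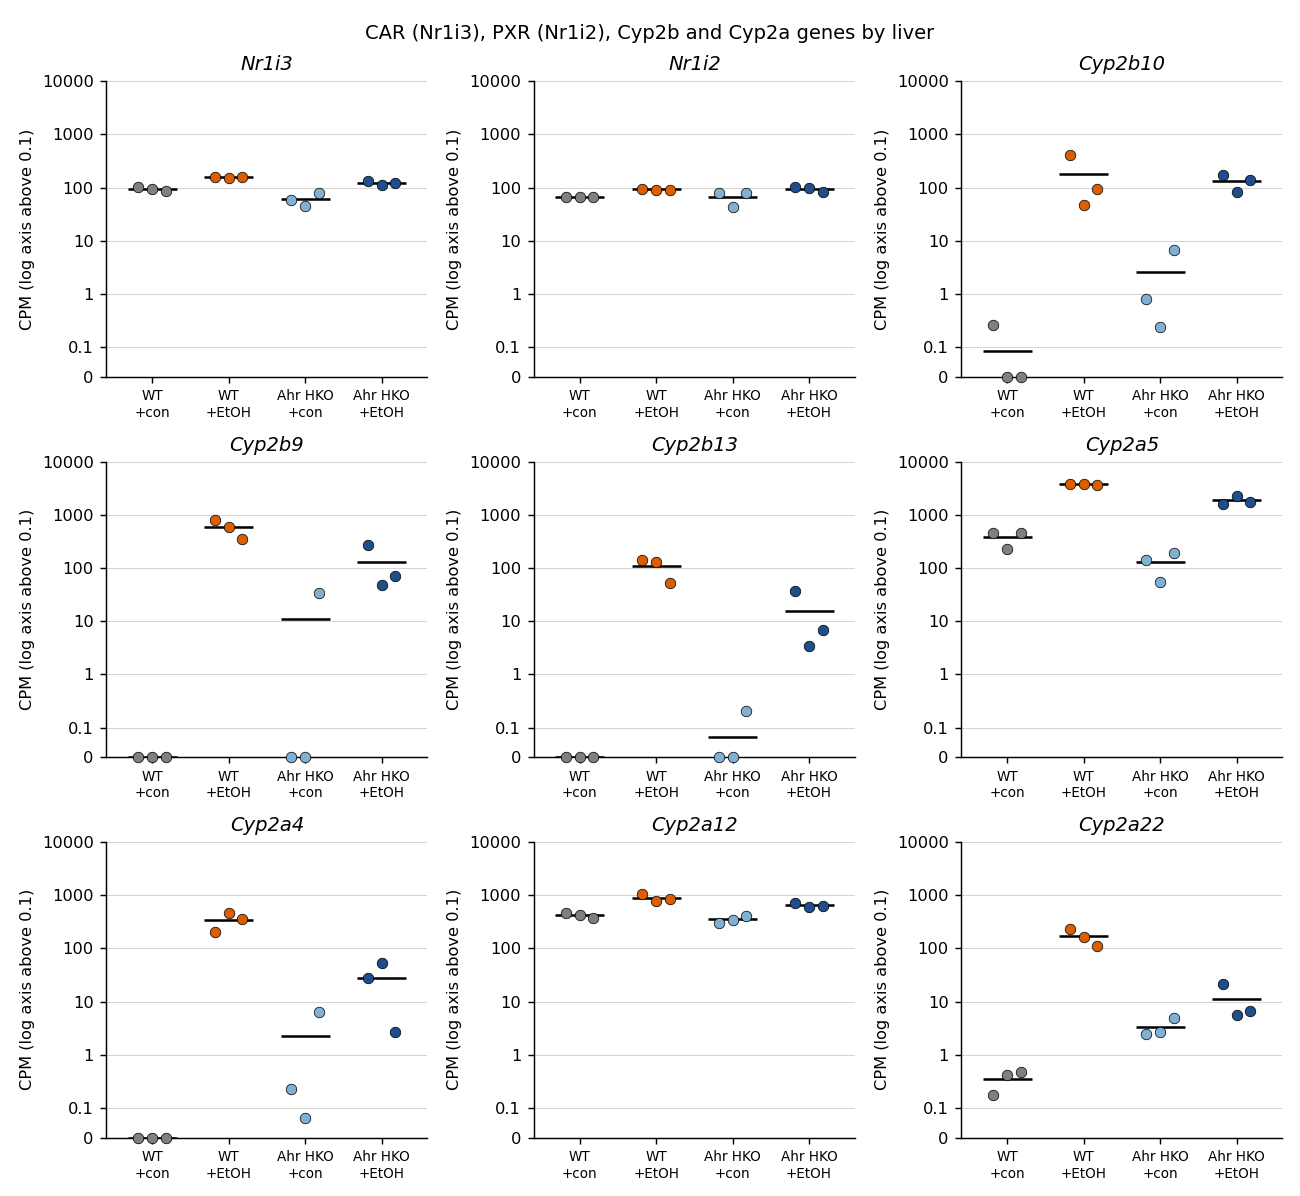
CPM of each of the 9 genes in each of the 12 livers, by group. The axis is logarithmic above 0.1 and linear below it. Points are livers and black lines are group means. The WT+con points of *Cyp2b9*, *Cyp2b13* and *Cyp2a4* sit at 0, and liver 3 of *Ahr* HKO+con stands above the other 2 of its group for all 3 of these genes.

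*Nr1i3*, which encodes CAR, was higher on ethanol in both genotypes. WT+con livers had 102.5, 93.7 and 84.9 CPM and WT+EtOH livers 158.5, 148.8 and 157.3 CPM. The groups did not overlap, and the FC was 1.67 (log2 FC 0.74, SE 0.0989, edgeR adjusted *P* = 0.00803). In *Ahr* HKO+con, livers had 58.8, 45.2 and 77.2 CPM and *Ahr* HKO+EtOH livers 135.1, 113.2 and 122 CPM, an FC of 2.04 (log2 FC 1.03, SE 0.204, edgeR adjusted *P* = 0.0108). The 4 groups kept apart in the order WT+EtOH, *Ahr* HKO+EtOH, WT+con and *Ahr* HKO+con, with no overlap between neighbours. The lower level of *Ahr* HKO on the control diet passed the test narrowly (log2 FC -0.63, SE 0.196, edgeR adjusted *P* = 0.0473), and the call was lost when any 1 of 5 of the 6 livers was left out. It held only without liver 3 of *Ahr* HKO+con (log2 FC -0.85). On ethanol the difference between genotypes was not called (log2 FC -0.33, edgeR adjusted *P* = 0.127), nor was the interaction (0.31 on the log2 scale, edgeR adjusted *P* = 0.363).

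*Nr1i2*, which encodes PXR, differed less. It was at 67.2, 66.5 and 67 CPM in WT+con and at 95.3, 91 and 89.7 CPM in WT+EtOH, with a FC of 1.39 (edgeR adjusted *P* = 0.0147) that is under the fold limit. The *Ahr* HKO+con group had 78.5, 42.2 and 79.5 CPM, and *Ahr* HKO+EtOH livers 102.5, 96.9 and 82.5 CPM. Liver 2 of *Ahr* HKO+con was the low one, and the log2 FC between the diets was 0.49 (edgeR adjusted *P* = 0.173). The genotypes overlapped on both diets. Their log2 FC was 0.0013 (SE 0.23, edgeR adjusted *P* = 0.997) on the control diet and 0.03 (SE 0.106, edgeR adjusted *P* = 0.891) on ethanol. Per length, CAR RNA exceeded PXR RNA in every liver, by 2.27 to 3.13 times in FPKM (fragments scaled to transcript length and library size) in WT and by 1.35 to 2.62 times in *Ahr* HKO.

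*Cyp2b10*, the CAR target, went from near the floor to well above it. WT+con livers held 12, 0 and 0 counts, and WT+EtOH livers stood at 408, 46.8 and 94.5 CPM. The log2 FC was 11.11 (SE 1.37, edgeR adjusted *P* = 0.00597), with a spread of several times between the ethanol livers. Because the control level rests on 1 liver near the floor, its size is loose. It was 16.34 without WT+con liver 1 and 9.73 without WT+EtOH liver 1, and it was called in all 6 fits without 1 liver. *Ahr* HKO+con livers read 0.817, 0.239 and 6.78 CPM and *Ahr* HKO+EtOH livers 172, 83.6 and 137.5 CPM, for a log2 FC of 5.66 (SE 1.12, edgeR adjusted *P* = 0.0106), or 7.95 without *Ahr* HKO+con liver 3. On ethanol the genotypes overlapped, with means of 183.1 ± 196 CPM in WT and 131.1 ± 44.6 CPM in *Ahr* HKO (SD, n = 3). Their log2 FC was -0.47 (SE 0.721, edgeR adjusted *P* = 0.739). Leaving out liver 1 of WT+EtOH turned it to 0.90. In control-fed mice *Ahr* HKO read higher but did not pass the test (log2 FC 4.96, SE 1.61, edgeR adjusted *P* = 0.0548), and the groups overlapped. Without *Ahr* HKO+con liver 2 it passed (edgeR adjusted *P* = 0.0344), and without liver 3 it was 2.63 (0.204). The interaction was not called (edgeR adjusted *P* = 0.0643).

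*Cyp2b9* had no count in any WT+con liver and 793.2, 586.4 and 353.2 CPM in WT+EtOH livers. That is an at least 8820-fold higher level against a floor of 3 counts per library (edgeR adjusted *P* = 0.000979). In *Ahr* HKO+con it had no count in livers 1 and 2 and 1669 counts, or 33.7 CPM, in liver 3. *Ahr* HKO+EtOH livers had 264.7, 48.1 and 70.2 CPM. These groups did not overlap, but the diet difference in *Ahr* HKO was not called (log2 FC 3.5, SE 1.97, edgeR adjusted *P* = 0.212). It was called without liver 3 of *Ahr* HKO+con (edgeR adjusted *P* = 0.00687). On ethanol all 3 *Ahr* HKO livers were under all 3 WT livers, with a log2 FC of -2.18 (SE 0.65) that did not pass the test (edgeR adjusted *P* = 0.131). Without *Ahr* HKO+EtOH liver 1, the highest of its group, it was -3.28 and was called (edgeR adjusted *P* = 0.0341). The interaction was called (edgeR adjusted *P* = 0.0459), and 10 of 12 fits that left out 1 library lost that call. Its fitted size has no meaning with WT+con at 0 and is not given.

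*Cyp2b13*, whose upstream window nearly matches that of *Cyp2b9*, followed it at a lower level per length. It had no count in WT+con and 143.8, 129.3 and 52.4 CPM in WT+EtOH, an at least 1657-fold higher level (edgeR adjusted *P* = 0.00249). The *Ahr* HKO+con group had 0, 0 and 10 counts, and *Ahr* HKO+EtOH livers 36.6, 3.47 and 6.86 CPM, for a log2 FC of 7.98 (SE 1.41, edgeR adjusted *P* = 0.00752). Its size is loose, because the control level rests on 10 counts in 1 liver. It was 6.35 without *Ahr* HKO+EtOH liver 1 and 12.88 without *Ahr* HKO+con liver 3. The call was kept in all 6 fits without 1 liver. On ethanol the log2 FC of *Ahr* HKO against WT was -2.80 (SE 0.867, edgeR adjusted *P* = 0.14) with no overlap between the groups, and without *Ahr* HKO+EtOH liver 1 it was -4.40 and called (edgeR adjusted *P* = 0.0422). The interaction was not called (edgeR adjusted *P* = 0.29). DESeq2 (adjusted *P* = 0.0393) and the limma fits on FPKM (adjusted *P* = 0.018 to 0.026) called it, with a negative sign. In FPKM, *Cyp2b9* exceeded *Cyp2b13* by 4.54 to 6.75 times in WT+EtOH livers and by 7.23 to 13.9 times in *Ahr* HKO+EtOH livers. In liver 3 of *Ahr* HKO+con that ratio was 181.

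Summed over the 3 *Cyp2b* genes, WT+EtOH livers had 1345, 762.5 and 500 CPM, where WT+con livers had 0.262, 0 and 0. *Ahr* HKO+con livers had 0.817, 0.239 and 40.6 CPM and *Ahr* HKO+EtOH livers 473.2, 135.2 and 214.6 CPM. The sum was called higher on ethanol in WT (log2 FC 13.37, edgeR adjusted *P* = 0.00111) and not in *Ahr* HKO (4.29, edgeR adjusted *P* = 0.0897), and the interaction was called (edgeR adjusted *P* = 0.0206). Without liver 3 of *Ahr* HKO+con, the sum was called in *Ahr* HKO too (log2 FC 9.01, edgeR adjusted *P* = 0.00300). It was higher in *Ahr* HKO than in WT on the control diet (log2 FC 7.39, SE 2.33, edgeR adjusted *P* = 0.0492) with overlapping groups. That call rested on liver 3 of *Ahr* HKO+con, without which the log2 FC was 2.63 (edgeR adjusted *P* = 0.204). It was also lost without any 1 WT+con liver (edgeR adjusted *P* = 0.134 to 0.141), with upper-quartile scaling (0.0511) and with the replicate block (0.0686). On ethanol it was lower in *Ahr* HKO in all 3 livers without passing the test (log2 FC -1.67, SE 0.517, edgeR adjusted *P* = 0.14), and it passed with the replicate block (edgeR adjusted *P* = 0.0466). The makeup of the sum was unlike in the genotypes on ethanol. *Cyp2b9* held 59.0% to 76.9% of the *Cyp2b* FPKM in WT+EtOH livers and 32.7% to 55.9% in *Ahr* HKO+EtOH livers, while *Cyp2b10* held 6.13% to 30.3% and 36.3% to 64.1%. These shares do not overlap between the genotypes, and the difference was not tested further.

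**Figure D2:**
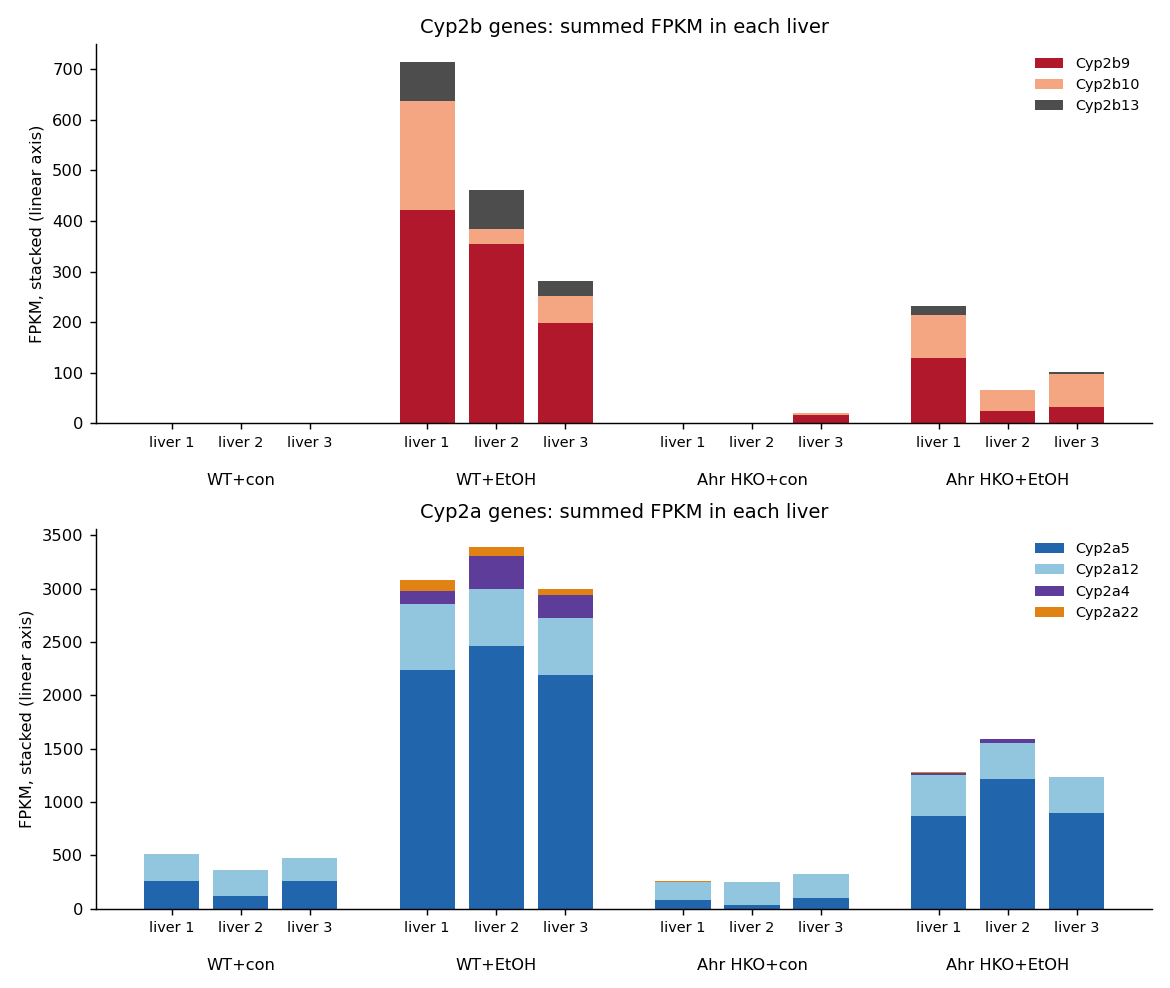
Deposited FPKM of the *Cyp2b* genes (top) and the *Cyp2a* genes (bottom), stacked in each liver, on linear axes that start at 0. *Cyp2b* bars reach 280.8 to 714.2 FPKM in WT+EtOH and 66.8 to 231.9 in *Ahr* HKO+EtOH, and *Cyp2a5* is the largest part of every ethanol bar of the *Cyp2a* panel.

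*Cyp2a5*, the coumarin 7-hydroxylase, was, per length, the most abundant of the 9 RNAs on ethanol in both genotypes. WT+con livers had 461.1, 224.4 and 459.9 CPM and WT+EtOH livers 3846, 3721 and 3563 CPM. The FC was 9.81 (log2 FC 3.29, SE 0.294, edgeR adjusted *P* = 0.00212), far beyond the spread between livers. *Ahr* HKO+con livers had 143.9, 55.7 and 191.5 CPM and *Ahr* HKO+EtOH livers 1612, 2249 and 1727 CPM, a FC of 14.2 (log2 FC 3.83, SE 0.463, edgeR adjusted *P* = 0.00279). *Ahr* HKO was lower than WT on both diets, with no overlap at either. The log2 FC was -1.54 (SE 0.465, edgeR adjusted *P* = 0.0428) on the control diet and -0.99 (SE 0.16, edgeR adjusted *P* = 0.0438) on ethanol. Both calls were near the threshold. The first was lost in 4 of 6 fits without 1 liver, at adjusted *P* values of up to 0.114, and the second in all 6, at up to 0.195. In those fits the log2 FC ran from -1.935 to -1.18 on the control diet and from -1.16 to -0.89 on ethanol. The interaction was not called (0.56 on the log2 scale, SE 0.538, edgeR adjusted *P* = 0.493).

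*Cyp2a4*, the steroid hydroxylase next to it in sequence, was absent from WT+con counts, while *Cyp2a5* stood at 224.4 to 461.1 CPM there. WT+EtOH livers had 207.3, 470.7 and 354.4 CPM of *Cyp2a4*, an at least 5254-fold higher level (edgeR adjusted *P* = 0.00120). In *Ahr* HKO+con it had 14, 4 and 317 counts, or 0.229, 0.0683 and 6.39 CPM. *Ahr* HKO+EtOH livers had 27.5, 53 and 2.66 CPM, which overlaps the control group at liver 3 of each, and the diet difference was not called (log2 FC 3.66, SE 1.52, edgeR adjusted *P* = 0.107). Without liver 3 of *Ahr* HKO+con it was (log2 FC 7.53, edgeR adjusted *P* = 0.0192). On ethanol every *Ahr* HKO liver was under every WT liver, with a log2 FC of -3.63 (SE 0.932, edgeR adjusted *P* = 0.104) that DESeq2 called (adjusted *P* = 0.00966). In control-fed mice the counts of *Ahr* HKO were above the 0 of WT in all 3 livers, without passing the test (edgeR adjusted *P* = 0.0742). The interaction was called (edgeR adjusted *P* = 0.0239), and leaving out liver 3 of *Ahr* HKO+con ended that call (edgeR adjusted *P* = 0.109). The FPKM ratio of *Cyp2a5* to *Cyp2a4* was 7.90 to 18.6 in WT+EtOH livers and 42.4 to 654 in *Ahr* HKO+EtOH livers. In *Ahr* HKO+con livers it was 653, 1060 and 30.0. Whether reads of *Cyp2a5* were counted as *Cyp2a4* was not tested.

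*Cyp2a12*, a P450 that hydroxylates bile acids and steroids in the mouse, was abundant in all groups. It had 453.4, 433.8 and 378.6 CPM in WT+con and 1035, 770.1 and 839.7 CPM in WT+EtOH, a log2 FC of 1.07 (SE 0.143, edgeR adjusted *P* = 0.00787). In *Ahr* HKO+con the levels were 302, 348.5 and 402.7 CPM and *Ahr* HKO+EtOH livers 703.3, 609.4 and 632.2 CPM, a log2 FC of 0.88 (SE 0.147, edgeR adjusted *P* = 0.00631). The genotypes were not called apart on the control diet (log2 FC -0.26, edgeR adjusted *P* = 0.218), where they overlapped, or on ethanol (log2 FC -0.44, edgeR adjusted *P* = 0.135), where they did not. The interaction was not called (edgeR adjusted *P* = 0.572).

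*Cyp2a22*, the least studied of the group, differed between the genotypes on both diets, in opposite directions. WT+con livers had 0.175, 0.411 and 0.47 CPM and WT+EtOH livers 230.9, 164.4 and 111.5 CPM, a log2 FC of 8.89 (SE 0.434, edgeR adjusted *P* = 0.000292). *Ahr* HKO+con livers had 2.47, 2.7 and 4.96 CPM and *Ahr* HKO+EtOH livers 21.9, 5.51 and 6.67 CPM, a log2 FC of 1.76 (SE 0.569) that was not called (edgeR adjusted *P* = 0.053). These groups did not overlap, and DESeq2 called the difference (adjusted *P* = 0.0028). So did edgeR with at least 10 counts in every library (adjusted *P* = 0.0465), in the fit of all 12 libraries (0.02) and without *Ahr* HKO+EtOH liver 2 (0.039). In control-fed mice *Cyp2a22* was 9.49-fold higher in *Ahr* HKO (log2 FC 3.25, SE 0.445, edgeR adjusted *P* = 0.00281), and this held without any 1 liver. The WT+con level rested on 8, 23 and 23 counts. *Cyp2a12*, 97.0% identical to *Cyp2a22* in coding sequence, had 18520 to 24299 counts there. The split of reads between the pair was not tested. On ethanol *Cyp2a22* was lower in *Ahr* HKO, by 14.8-fold (log2 FC -3.89, SE 0.59, edgeR adjusted *P* = 0.0399), with 4 of 6 fits without 1 liver losing that call. The interaction was -7.12 on the log2 scale (SE 0.83, edgeR adjusted *P* = 0.000458). It was called in all 12 fits without 1 library, between -8.02 and -6.74.

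**Figure D3:**
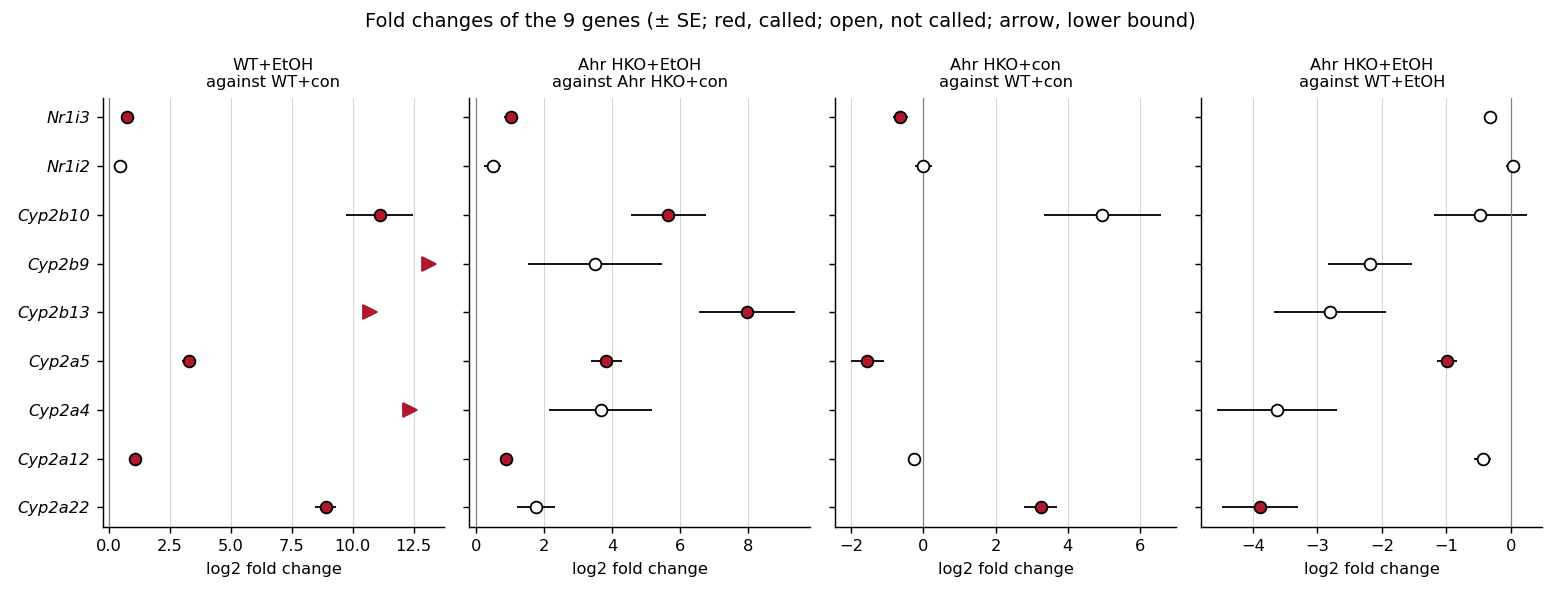
Log2 FC with SE of the 9 genes in the 4 comparisons of group pairs. The axes differ between the panels. Red points were called, open points were not, and arrows are lower bounds against groups at 0 (at least 8820-fold for *Cyp2b9*). *Cyp2b9*, *Cyp2b13* and *Cyp2a4* are left out of the control-diet panel of the genotypes, where WT+con is at 0.

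*Cyp2a4* and *Cyp2a5* together were at 461.1, 224.4 and 459.9 CPM in WT+con and at 4054, 4192 and 3917 CPM in WT+EtOH, and the corresponding *Ahr* HKO livers had 144.1, 55.8 and 197.9 CPM and 1640, 2302 and 1729 CPM. The pair was higher on ethanol in WT (log2 FC 3.42, edgeR adjusted *P* = 0.00207) and in *Ahr* HKO (3.83, edgeR adjusted *P* = 0.0028). It was lower in *Ahr* HKO on the control diet (-1.52, edgeR adjusted *P* = 0.0469) and on ethanol (-1.10, edgeR adjusted *P* = 0.0386). The first call was lost in 4 of 6 fits without 1 liver (edgeR adjusted *P* up to 0.122) and the second in 5 of 6 (up to 0.171). *Cyp2a12* and *Cyp2a22* together had a log2 FC between the diets of 1.33 in WT (edgeR adjusted *P* = 0.00504) and 0.90 in *Ahr* HKO (edgeR adjusted *P* = 0.00659). Between the genotypes this pair was not called on the control diet (log2 FC -0.25, edgeR adjusted *P* = 0.241) or on ethanol (-0.67, edgeR adjusted *P* = 0.0778). DESeq2 called it on ethanol (adjusted *P* = 0.000677). All 7 P450 genes summed to 915, 658.6 and 839 CPM in WT+con and to 6664, 5889 and 5368 CPM in WT+EtOH. In *Ahr* HKO the sums were 449.4, 407.2 and 646.2 CPM on control diet and 2838, 3052 and 2583 CPM on ethanol. The total was 7.49-fold higher on ethanol in WT (edgeR adjusted *P* = 0.000769) and 5.63-fold higher in *Ahr* HKO (edgeR adjusted *P* = 0.0014). On ethanol it was 2.11-fold lower in *Ahr* HKO than in WT (log2 FC -1.08, SE 0.142, edgeR adjusted *P* = 0.0315), a call that 5 of 6 fits without 1 liver lost (edgeR adjusted *P* = 0.0700 to 0.141). On the control diet the difference missed the threshold (log2 FC -0.68, SE 0.214, edgeR adjusted *P* = 0.0501). It passed with DESeq2 (adjusted *P* = 0.00722) and, in edgeR, with upper-quartile scaling (0.0304), the replicate block (0.0496) and without *Ahr* HKO+con liver 3 (0.0129). The 4 *Cyp2a* genes summed were called lower in *Ahr* HKO on control diet (log2 FC -0.72, edgeR adjusted *P* = 0.0317) and ethanol (-0.999, edgeR adjusted *P* = 0.0365). Some fits without 1 liver lost these calls (up to 0.0913 and 0.166). The interaction was not called for any of the *Cyp2a* sums or for the total (edgeR adjusted *P* = 0.186 to 0.616).

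Per length, the order of the P450 RNAs changed with the diet. In WT+con, *Cyp2a12* led at 239.3 ± 21.3 FPKM (SD, n = 3), level with *Cyp2a5* at 210.7 ± 76.8, and the ranges of these 2 overlapped. *Cyp2a22* and *Cyp2b10* were below 0.2 FPKM. In WT+EtOH, *Cyp2a5* led at 2297 ± 148 FPKM, followed by *Cyp2a12* at 559.3 ± 52.4, *Cyp2b9* at 324.9 ± 114 and *Cyp2a4* at 216.8 ± 95.8, of which *Cyp2b9* and *Cyp2a4* overlapped. In *Ahr* HKO+EtOH the order was *Cyp2a5* at 992 ± 195 FPKM, *Cyp2a12* at 355.4 ± 29, *Cyp2b10* at 63.5 ± 21.5 and *Cyp2b9* at 62.2 ± 58.6, with the last 2 overlapping. *Cyp2a5* made up 72.6% to 73.2% of the *Cyp2a* FPKM in WT+EtOH livers and 67.7% to 76.6% in *Ahr* HKO+EtOH livers, against 33.4% to 54.1% in WT+con and 13.4% to 31.5% in *Ahr* HKO+con.

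Within groups, liver 3 of *Ahr* HKO+con had the highest level of its group for *Nr1i3*, *Nr1i2* and each of the 7 P450 genes, although only narrowly so for *Nr1i2*. It also differed from the other 2 livers of its group in cell type markers. Its hepatocyte markers summed to 107100 CPM against 67880 and 67550, its Kupffer cell markers to 296 CPM against 854.4 and 551.1, and its cholangiocyte markers to 44.5 CPM against 476 and 179.9. The part of these differences in the P450 levels was not tested.

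Kupffer cell markers also moved with the diet in *Ahr* HKO. All 6 of them were called lower on ethanol, against 11.7% of all tested genes, from summed levels of 296 to 854.4 CPM down to 189.1 to 234.9 CPM, while in WT none of the 6 was called and the sums ran from 336.5 to 441.2 CPM on control diet and from 299.1 to 780.5 CPM on ethanol. Sinusoidal endothelial markers had 1 of 5 called lower in *Ahr* HKO on ethanol and none in WT. Of 5 hepatocyte markers, 1 was called lower in WT on ethanol and 1 higher in *Ahr* HKO. Of 6 stellate cell markers, 1 was called higher on ethanol in each genotype, and of 5 cholangiocyte markers 1 was called lower in *Ahr* HKO. Over all tested genes, 10.3% were called higher and 11.7% lower on ethanol in *Ahr* HKO, and 3.36% and 3.4% in WT. The part of these cell type markers in the results above was not tested.

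Beyond *Cyp2b* and *Cyp2a*, a list of 39 further genes known to respond to CAR or PXR was counted. On ethanol, 24 of 39 were called higher in WT, against 3.36% of all tested genes, and none lower, with a median log2 FC of 1.49 against 0.03 over all tested genes. In *Ahr* HKO, 28 were called higher, against 10.3% of all tested genes, and 1 lower, with a median of 1.11 against -0.02. The 19 genes called higher in both make up 79.2% of the WT calls and 67.9% of the *Ahr* HKO calls. The log2 FC was larger in WT for 26 of the 39 genes. The largest called changes in WT were those of *Gsta1*, *Abcc4*, *Gsta2* and *Gstm3*, which encode glutathione transferases and, for *Abcc4*, an export pump. *Gsta1* had a mean of 0.962 CPM in WT+con and 49.3 CPM in WT+EtOH (log2 FC 5.71, SE 0.728, edgeR adjusted *P* = 0.00659). *Abcc4* had a log2 FC of 5.38 (SE 0.324, edgeR adjusted *P* = 0.000604), *Gsta2* of 4.90 and *Gstm3* of 4.6. In *Ahr* HKO the largest were those of *Akr1b7*, an aldo-keto reductase, which fell by 3.76 on the log2 scale, the long RNA *Meg3* (3.45), *Gstm3* (3.30) and *Cyp2c55* (2.75).

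**Figure D4:**
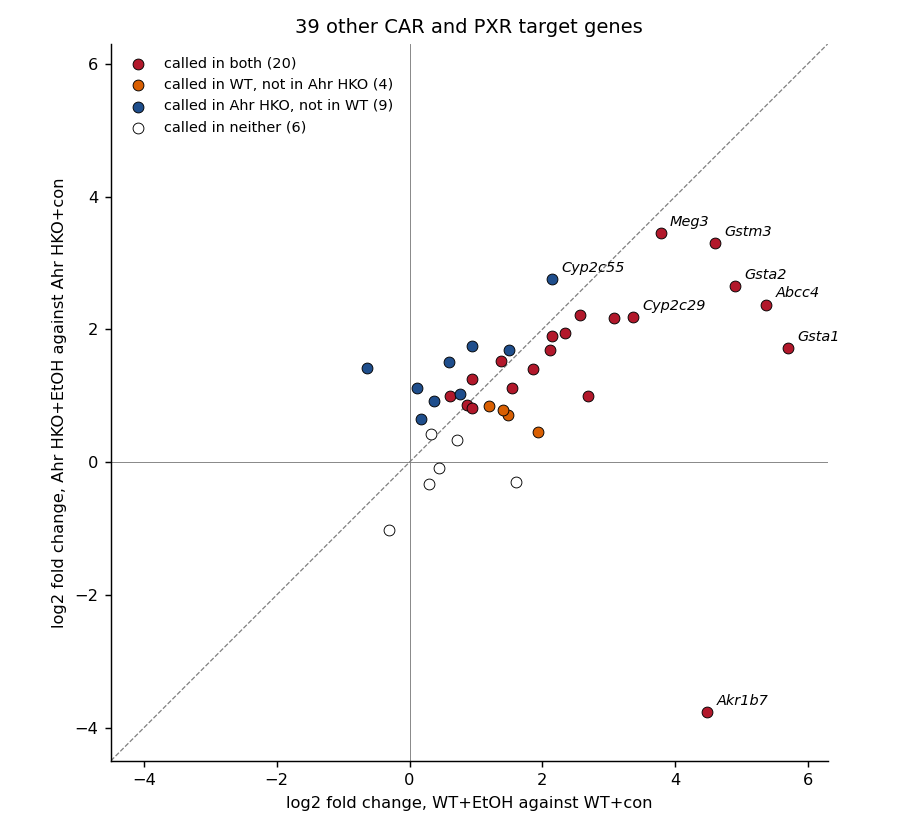
Log2 FC between the diets in WT (horizontal) and in *Ahr* HKO (vertical) of the 39 other CAR and PXR target genes, with no shared libraries between the axes. Colours give the calls and the dashed line marks equal change. Most points lie at positive values on both axes, and *Akr1b7* lies at 4.49 in WT and at -3.76 in *Ahr* HKO. Its WT+con level was near the floor.

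The interaction was called for 8 of these 39 genes, a share near the 22.3% of all tested genes. Of the 39, 7 were called with a negative sign and 1 with a positive sign, against 11.1% and 11.2% of all tested genes. *Akr1b7* had the largest (-8.23 on the log2 scale, SE 1.45, edgeR adjusted *P* = 0.00332), followed by *Gsta1* (-3.97, SE 0.806, edgeR adjusted *P* = 0.00649) and *Abcc4* (-2.99, SE 0.679, edgeR adjusted *P* = 0.0108). The sizes for *Akr1b7* are loose, because its WT+con livers were near the floor, at 0, 0.125 and 0.102 CPM. *Ahr* HKO+con livers had 1.45, 3.79 and 10.8 CPM of it, with liver 3 the highest. *Sult5a1*, a sulfotransferase, was the one with a positive sign (2.07, edgeR adjusted *P* = 0.0144). Between the genotypes on ethanol, *Gstm3* (log2 FC -1.67, edgeR adjusted *P* = 0.0121) and the epoxide hydrolase *Ephx1* (-0.90, edgeR adjusted *P* = 0.0399) were called lower in *Ahr* HKO and the monooxygenase *Fmo5* (0.98, edgeR adjusted *P* = 0.0438) higher, with a median of -0.33 against -0.01 over all tested genes. In control-fed mice 2 of 39 were called higher and 3 lower, which is under the 9.77% and 10.1% of all tested genes. Among them were *Akr1b7* (6.05), *Cyp3a13* (0.77), *Sult5a1* (-1.25) and the carboxylesterase *Ces2c* (-0.94).

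Of 26 partners, co-regulators and chaperones of the 2 receptors, 2 were called in WT on ethanol, both higher, a share near the 6.76% of all tested genes. These were *Gadd45b*, a coactivator that CAR is known to bind (log2 FC 3.01, SE 0.259, edgeR adjusted *P* = 0.00203), and the coactivator *Ppargc1a* (0.60, SE 0.139, edgeR adjusted *P* = 0.0417). *Gadd45b* was at 6.87 to 10 CPM in WT+EtOH livers and at 1.87 to 3.72 CPM in *Ahr* HKO+EtOH livers, and it was called lower in *Ahr* HKO on ethanol (log2 FC -1.73, SE 0.291, edgeR adjusted *P* = 0.0485), with an interaction of -3.18 (edgeR adjusted *P* = 0.00335). In *Ahr* HKO, 5 of 26 were called higher on ethanol and 2 lower, against 10.3% and 11.7% of all tested genes, with *Ppargc1a* (1.51) and the corepressor *Nr0b2* (1.33) up and *Egfr* (-1.21), whose signaling is known to hold CAR in the cytoplasm, down. On the control diet *Hsp90aa1*, a chaperone of both receptors and of AhR, was higher in *Ahr* HKO (log2 FC 1.93, SE 0.207, edgeR adjusted *P* = 0.00138), as was *Egfr* (1.21), while *Rxrg*, another RXR gene, was lower (-1.78). In that comparison 4 of 26 were called higher and 3 lower, against 9.77% and 10.1% of all tested genes. The heterodimer partner *Rxra* was called in none of the comparisons.

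Genes around the P450 cluster on chromosome 7 were counted as well. Of 15 neighbouring genes tested, 1 was called in WT on ethanol, a share near the 6.76% of all tested genes. It was *Blvrb* (biliverdin reductase B), with a log2 FC of 1.33 (SE 0.116, edgeR adjusted *P* = 0.00212). In *Ahr* HKO, 3 of 15 were called higher and 3 lower on ethanol, against 10.3% and 11.7% of all tested genes, *Blvrb* (1.396) and *Cyp2f2* (1.33) among the former and *Tgfb1* (-0.91) and *Axl* (-0.78) among the latter. *Cyp2f2*, the P450 gene next to *Cyp2a12*, was at 1059 to 1159 CPM in WT+con and 971.3 to 1001 CPM in WT+EtOH, so that it did not share the increase of the *Cyp2a* genes in WT (log2 FC -0.15, edgeR adjusted *P* = 0.429). Its interaction was called (1.49, SE 0.17, edgeR adjusted *P* = 0.000398), with the sign opposite to that of *Cyp2a22*.

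Since *Cyp2b9*, *Cyp2b13* and *Cyp2a4* are known as female-biased, other sex-biased liver genes were counted, leaving the 9 genes out. Of 24 female-biased genes listed, 15 passed the filter on low counts, and the others were not tested. Of the 15 tested, 6 were called higher in WT on ethanol, against 3.36% of all tested genes, and none lower. The median log2 FC of the 15 was 1.84 against 0.03 over all tested genes. The 6 included *Acot3* (4.54, SE 0.583, edgeR adjusted *P* = 0.00674). In *Ahr* HKO 1 of 15 was called higher on ethanol, *Cyp3a44* (1.41), against 10.3% of all tested genes. Of 22 male-biased genes, 15 were called lower, against 3.4% of all tested genes, and none higher in WT on ethanol, with a median of -2.63. *Hsd3b5*, a steroid dehydrogenase of male liver, fell from 241.4 to 256.3 CPM in WT+con to 0 to 0.605 CPM in WT+EtOH (log2 FC -9.89, SE 0.761, edgeR adjusted *P* = 0.00138). In *Ahr* HKO 5 of the 22 were called higher and 1 lower on ethanol, against 10.3% and 11.7% of all tested genes. Between the genotypes on ethanol, 6 of the 22 were called higher in *Ahr* HKO, against 0.684% of all tested genes. The interaction was called for 18 of the 22, all with a positive sign, against 11.2% of all tested genes. On the control diet 11 of 22 were called lower in *Ahr* HKO, against 10.1% of all tested genes, with *Hsd3b5* at 9.15 to 27 CPM. Pericentral hepatocyte genes, which share the central vein zone with *Cyp2a5* and *Cyp2b10*, had 2 of 15 called higher and 3 lower in WT, against 3.36% and 3.4% of all tested genes, and 3 called higher in *Ahr* HKO, against 10.3%.

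The genes whose log2 CPM was most like that of a member over the 12 livers are given as a description, because the livers share groups and diets. For *Nr1i3* they were *Ppm1a* (Pearson *r* = 0.978), *Dpys* (0.975) and *Hyi* (0.973), and for *Nr1i2* *Cox17* (0.943), *Tmem222* (0.923) and *Msra* (0.918). *Cyp2b10* was most like *Pnrc1* (0.964), *Cyp2c29* (0.962) and *Abcc3* (0.958), the last 2 of which stand in the list of CAR and PXR targets. *Cyp2b9* was most like *Mgst3* (0.968), *Gsta2* (0.952) and *Slc16a7* (0.948). *Cyp2a5* was most like *Pex13* (0.976), *9130409I23Rik* (0.972) and *Adi1* (0.972), and *Cyp2a12* most like *Gstm3* (0.97), *Josd1* (0.97) and *Arpp19* (0.969). Among the 9 genes themselves, *Nr1i3* followed *Cyp2a5* (0.954) and *Cyp2a12* (0.922) more closely than *Cyp2b10* (0.694), and *Cyp2b9* followed *Cyp2b13* (0.954), *Cyp2a4* (0.953) and *Cyp2b10* (0.943).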

How the data were processed

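RNA of 12 mouse livers was measured by stranded mRNA sequencing, 3 separate mice in each of 4 groups assigned from the labels. According to the submitters' processing notes, reads were handled with FastQC 0.11.7, Trimmomatic 0.38, HISAT2 2.1.0, Bowtie2 2.3.4.1 and StringTie 1.3.4d on mm10. The authors deposited read counts per gene, not normalized, together with FPKM and TPM values. The deposited TPM values were not used. The handling of reads that fit more than 1 P450 gene is not given in the sources used here.

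Counts were tested with edgeR 4.0.16 (R 4.3.3), by quasi-likelihood fits on the 6 libraries of a comparison, or on all 12 for the interaction, with TMM scaling. filterByExpr kept 14038 of 24532 genes, of which 17220 had a count. CPM values used TMM factors of all 12 libraries (0.925 to 1.157). SE is the absolute log2 FC divided by the root of F. Alternatives used DESeq2 1.42.0, limma 3.58.1 on log2(FPKM + pseudocount), other scalings and filters, and left-out livers. Counts of the 3 *Cyp2b* genes, of the *Cyp2a* pairs, of the 4 *Cyp2a* genes and of all 7 were also summed per library, and these 5 sums were tested in a table in which they replaced the 7 P450 genes, with the library scaling unchanged. The authors' deposited FPKM values were used for levels per length. The tests were tried on simulated data. The 9 genes and the lists were chosen with earlier results of these data known. From each list, up to 4 called genes with the largest absolute log2 FC and a mean count of at least 50 could be named per comparison, and for 6 of the 9 genes the 3 genes with the highest Pearson *r*. *Rxra*, and *Cyp2f2* and *Akr1b7* where not among these, were named after their values were seen.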

Additional observations from a re-analysis of the deposited data

Results flagged for a closer look

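The diet difference was not alike in the genotypes, by the interaction test over the 12 livers in edgeR, for 3 of the 9 genes and 1 family sum. The adjusted *P* value was 0.000458 for *Cyp2a22*, 0.0239 for *Cyp2a4*, 0.0459 for *Cyp2b9* and 0.0206 for the *Cyp2b* sum, each with the smaller increase on ethanol in *Ahr* HKO. Of the tested genes, 22.3% had a called interaction. *Cyp2b9* and *Cyp2a4* were at 0 in all WT+con livers, and liver 3 of *Ahr* HKO+con held all 1669 counts of *Cyp2b9* in its group and 317 counts of *Cyp2a4*. Without that liver the *Cyp2b9* and *Cyp2a4* interactions were not called (adjusted *P* = 1 and 0.109 in edgeR). No formal outlier test was run on groups of 3 livers.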

How the results depend on the processing

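Over 698 values of the 9 genes under other settings, 609 kept their direction and side of the threshold, 41 lost the call, 23 gained one and 25 changed sign. The causes were not tested. Demanding at least 10 counts in every library left 3 genes called in WT between the diets and 0 in the interaction, because genes at or near 0 in a group were then not tested. Without any 1 liver, the genes called numbered 8 in WT between the diets, 5 to 7 in *Ahr* HKO between the diets, 1 to 3 between the genotypes on the control diet, 0 to 3 on ethanol and 1 to 4 in the interaction. The lowest counts came without WT+con liver 1 or 3 or *Ahr* HKO+con liver 1 on the control diet, without WT+EtOH liver 1 or 2 or *Ahr* HKO+EtOH liver 2 or 3 on ethanol, and without *Ahr* HKO+con liver 3 in the interaction. Over all tested genes, those with an edgeR adjusted *P* under 0.05, whatever their FC, also changed in number. Between the genotypes on ethanol they numbered 155 with all livers and 7 to 189 without 1 liver. On the control diet they numbered 4161 and 2630 to 3748. Between the diets they numbered 1329 and 367 to 1026 in WT, and 4322 and 2588 to 3792 in *Ahr* HKO. In the interaction they numbered 3137 and 2267 to 3084. The family sums called, of 5, ranged likewise from 0 to 3 on the control diet (0 without WT+con liver 1 or 3), 0 to 2 on ethanol against 3 with all livers, and 0 to 1 in the interaction (0 without WT+con liver 2 or 3). One fit of all 12 libraries called 5 genes between the genotypes on the control diet and 1 on ethanol. The limits of the study on ethanol, an unadjusted *P* under 0.05 and an FC above 2, called 4 genes in the edgeR fit. These looser limits called 6.13% of all tested genes there, against 1.06% under the rule used above. *Cyp2b9* and *Cyp2b13* had no value on the control diet without *Ahr* HKO+con liver 3, as both genotypes were then at 0, and DESeq2 gave no adjusted *P* for the *Cyp2b* sum in some fits.

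Sign changes of log2 FC touched values that were not called. For *Nr1i2* between the genotypes on the control diet it was -0.0744 with upper-quartile scaling, -0.00262 with at least 10 counts in every library, -0.00349 in the fit of all libraries, -0.0820, -0.0229 and -0.0869 with limma on quantile-normalized log2(FPKM + 1), on log2(FPKM + 1) and on quantile-normalized log2(FPKM + 0.1), and -0.149 to 0.247 without 1 liver. On ethanol the same gene had -0.0171 with upper-quartile scaling, -0.0148, -0.179 and -0.0154 with the limma fits in that order, and -0.0279 to 0.117 without 1 liver. Without quantile normalization the median of all genes was itself shifted by -0.132 there. The *Nr1i2* interaction was -0.156 with limma on log2(FPKM + 1) and -0.21 to 0.179 without 1 library. The *Cyp2a5* interaction was -0.0935 and -0.0794 with the quantile-normalized limma fits. *Cyp2b10* between the genotypes on ethanol ranged from -0.912 to 0.898 without 1 liver.

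Replicate numbers are shared between the groups, but same-numbered livers did not deviate together (correlations of -0.0884 to 0.178), so the numbers were not taken as pairs. A fit with the replicate block called 1 gene in the interaction instead of 3, and gave -0.0554 for *Nr1i2* on the control diet and 0.0626 for *Cyp2b10* on ethanol between the genotypes.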

Other observations

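Male-biased liver genes other than *Hsd3b5* also differed between the genotypes on ethanol. *Cyp4a12b*, a fatty acid hydroxylase, was higher in *Ahr* HKO+EtOH than in WT+EtOH (log2 FC 6.05, SE 0.328, edgeR adjusted *P* = 0.0023), as were *Cyp4a12a* (4.76, SE 0.364, edgeR adjusted *P* = 0.0067) and *Mup1*, a major urinary protein (3.37, SE 0.372, edgeR adjusted *P* = 0.02). In WT on ethanol the log2 FC of *Cyp4a12b* was -6.28 and that of *Selenbp2* -5.49. The *Cyp4a12* and *Mup* genes have near-identical copies, so the split of reads among them is uncertain.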
